A study of Drosophila melanogaster with 6 samples.

Results

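The ligand-gated chloride channels of the fly brain were followed on 6 Affymetrix arrays of Drosophila melanogaster RNA. The 8 genes were taken by name as cys-loop channels gated by GABA, glutamate, histamine or pH (Rdl, Lcch3, Grd, GluClalpha, ort, HisCl1, pHCl-1 and pHCl-2), and their probe sets were those that the platform annotation maps to a single gene. This gave 9 probe sets for 7 genes, out of 13966 probe sets that are not Affymetrix controls. HisCl1 had no such probe set and was not analysed here. Of the 9 probe sets, 7 from 6 genes had a mean signal of at least 9.2, the level set for testing, and 2 lay below it. Ablated brains (ablated 4, 5 and 6) came from adult CantonS females, a wild-type strain, that had eaten hydroxyurea at 25 mg/ml for 4 h just after hatching. Hydroxyurea blocks DNA synthesis and kills the neuroblasts that divide at that time, which include those of the mushroom bodies. Control brains (control 1, 2 and 3) came from untreated CantonS females of the same stage, and both groups grew on corn meal food at 25 °C. All ablated flies and no control flies had the drug, so its other effects and the loss of the mushroom bodies cannot be told apart. No label ties an array to its own culture, so a p-value here speaks of these samples only, whose spread could be technical.

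Cys-loop channels are rings of subunits around a pore that opens when a ligand binds. Those described here were grouped by name as chloride channels, and which ion each subunit passes was not measured. Chloride flow in most adult neurons holds the cell below its firing threshold. GABA, the main inhibitory transmitter of the insect brain, acts through channels built with Rdl, and Rdl is known for its place in mushroom body Kenyon cells, the neurons that store odour memories. Glutamate opens GluClalpha channels, histamine released by photoreceptors opens channels of ort and HisCl1, and the pHCl channels respond to pH.

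The arrays differed in overall brightness, which touches each value below. The median signal ranged from 13 to 14.8 on the ablated arrays and from 14.2 to 17.6 on the control arrays, and over the 8381 tested probe sets the median log2 difference between ablated and control brains was -0.17. All log2 values are of signal + 2.7, an offset that shrinks the differences of dim probe sets. A difference is therefore also given relative to -0.17. Probe sets differ in how brightly they read, so a signal was compared between arrays and not taken as more or less RNA than another probe set's. The 3' to 5' signal ratio of the Gapdh control probe sets, a sign of RNA quality, ranged from 7.12 to 10.5 on the ablated arrays and from 7.18 to 13.0 on the control arrays. Neuronal markers had a summed signal of 999 to 1189 on ablated arrays and 1215 to 1457 on control arrays, over 5 of 6 listed genes with a probe set, and elav and nSyb were bright on each array. Markers of other tissues that a dissection can carry along varied more, except those of Malpighian tubule and gut. Muscle markers summed to 195 to 1121 on ablated arrays and 75.6 to 642 on control arrays, over 5 of 7 listed genes. Odorant-binding proteins summed to 137 to 1317 on ablated and 58.7 to 65.6 on control arrays (5 of 6 genes), and trachea to 220.5 to 502.5 on ablated and 63.9 to 190.1 on control arrays (3 of 5). The groups overlapped for muscle and were apart for the odorant-binding and tracheal lists. Photoreceptors gave 381 to 1358 on ablated and 121 to 1785 on control arrays (6 of 12 genes), fat body 15985 to 20218 on ablated and 11470 to 25854 on control arrays (6 of 6), glia 1874 to 2447 on ablated and 2301 to 2703 on control arrays (6 of 7), and Malpighian tubule and gut 329.5 to 421 on ablated and 337 to 358 on control arrays (3 of 5). Their part in the channel results was not tested.

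Of the chloride channels, pHCl-1 (chromosome 3L, between meru and sff) had the widest separation of the groups, and it had it on 1 of its 3 probe sets. These are numbered in a row from 148830_at and are called the first, middle and last probe set here. On the last probe set the signal was 9.80, 6 and 9.30 on ablated 4, 5 and 6, against 25.8, 22.6 and 22.4 on control 1, 2 and 3. Each ablated array lay below each control array. The means were 8.37 ± 2.06 in ablated brains and 23.6 ± 1.91 in control brains (SD, n = 3 each), so that ablated brains held 35.5% of the control signal. On the log2 scale they differed by -1.26 (SE 0.27, 95% interval -1.87 to -0.66), which is -1.09 relative to all tested probe sets. It had the 6th smallest p of 8381 probe sets, yet did not pass limma's test after Benjamini-Hochberg adjustment (adjusted p = 0.554). With arrays centred on their medians the difference was -1.11, with adjusted p = 0.839. A larger offset of 16 gave -0.70.

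The ablated mean of the last probe set, 8.37, is under the level of 9.2, so it was tested through its control arrays alone. Of 270 probe sets with an ablated mean below and a control mean at or above that level, 64 (23.7%) were at least 1.5-fold lower in ablated brains with no overlap, as this one was. Among the 7943 tested probe sets with both means at or above the level, the share was 2.57%. The arrays with the closest Gapdh ratios, ablated 6 at 7.12 and control 2 at 7.18, differed by -1.08 on the last pHCl-1 probe set. This sets 1 array against 1, and whether RNA quality bears on the probe set was not tested. Kenyon cell markers lay below 0 for 6 of 6 tested genes with a median of -0.53, where 74% of all genes lay below 0. Of the 6, 4 were lower with no overlap, against 15.1% of all genes. Of these 4, prt (143798_at, means of 8.40 in ablated and 24.2 in control brains) was tested through its control arrays alone. The count took dnc by its brightest probe set, 152476_at, at -0.48. Its other tested probe sets, 143128_at at -0.19 and 144435_at at 0.24, overlapped. The second probe set of rut, 143329_at, differed by -0.77 and overlapped too. The markers summed to 2368 to 2775 on ablated arrays and 2896 to 3557 on control arrays, with no overlap. Much of each sum was rut (151241_f_at), which overlapped, at 1860 to 2179 on ablated and 2081 to 2537 on control arrays. Sums of the neuronal markers and of the channels (862 to 1009 on ablated, 1043 to 1363 on control arrays) were apart too. Whether the last pHCl-1 probe set moved with the number of Kenyon cells was not tested. In whole brains, fewer cells of a type and less RNA per cell cannot be told apart.

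The middle probe set of pHCl-1 did not separate the groups. It read 87.4, 57.3 and 59.7 on ablated 4, 5 and 6, against 89.4, 64.0 and 73.6 on control 1, 2 and 3. Ablated 4 stood beside control 1 at the top, while ablated 5 and 6 lay below all 3 control arrays. The log2 difference was -0.16 (SE 0.22, 95% interval -0.64 to 0.33, limma adjusted p = 0.788), which is 0.015 relative to all probe sets. It was -0.34 without ablated 4 and -0.035 without control 1. The first probe set, 148830_at, was too dim to be tested, with a mean over all arrays of 8.35. It read 11.1, 2.5 and 11.6 on ablated 4, 5 and 6, against 10.3, 10.2 and 4.4 on control 1, 2 and 3. One array in each group stood apart on the low side, and the groups overlapped.

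**Figure D1:**
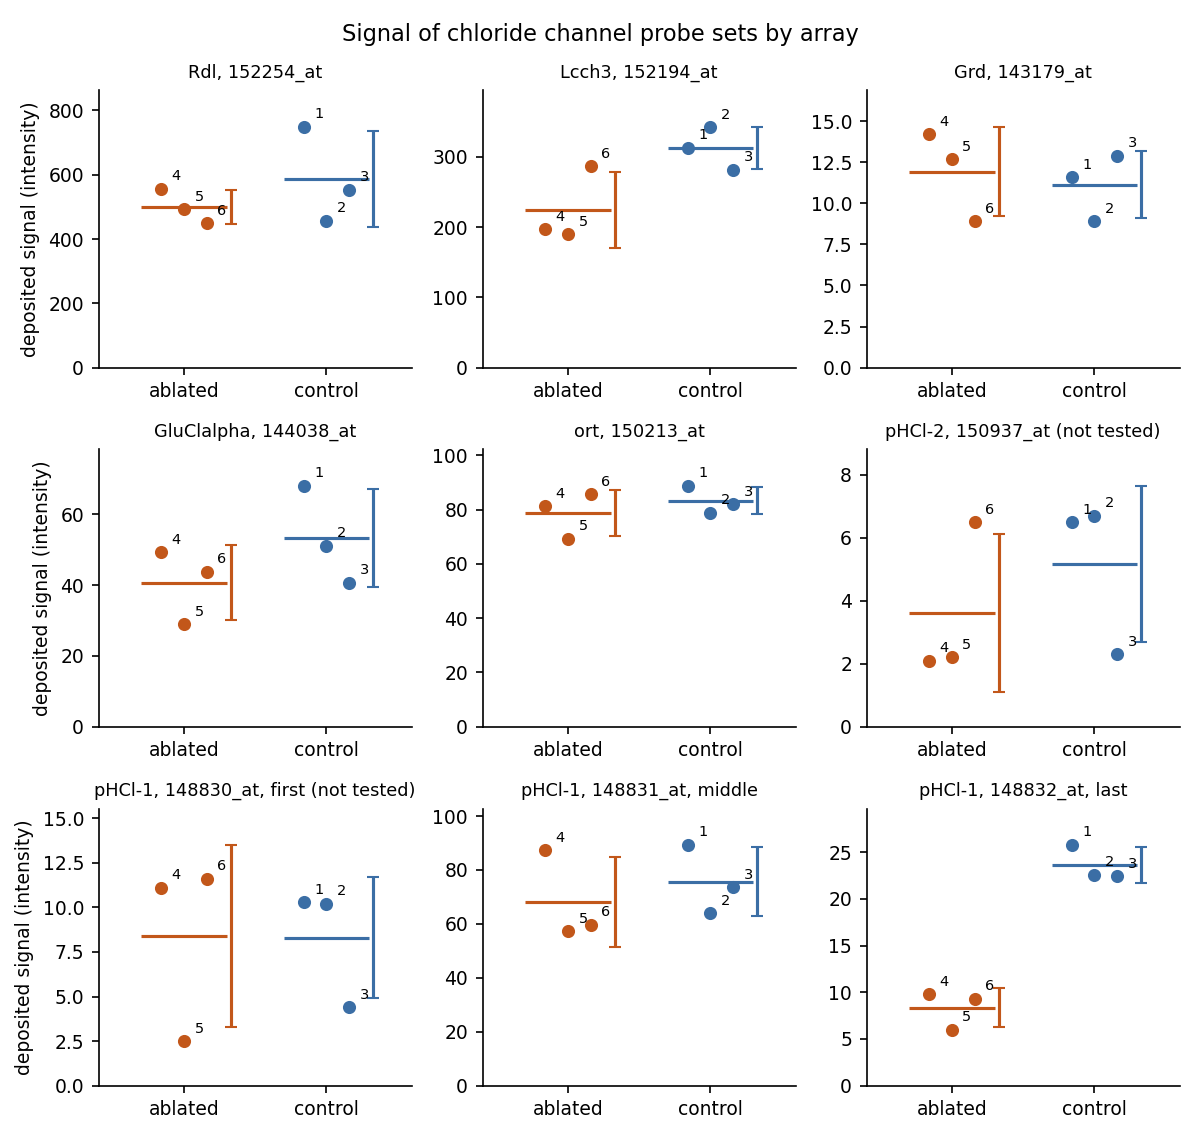
Deposited signal (vertical axis, linear intensity from 0) of the 9 chloride channel probe sets on ablated arrays 4, 5 and 6 (left, orange) and control arrays 1, 2 and 3 (right, blue). Points are arrays, horizontal lines are group means and bars show 1 SD. The groups are apart on the last pHCl-1 probe set (6 to 9.80 in ablated, 22.4 to 25.8 in control) and overlap on the other 8 probe sets.

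The last and middle pHCl-1 probe sets were read on the same array. A scaling common to an array therefore leaves the ratio of their deposited signals unchanged. The signal of the last probe set was 11.2%, 10.5% and 15.6% of that of the middle one on ablated 4, 5 and 6, against 28.9%, 35.3% and 30.4% on control 1, 2 and 3. The share averaged 12.4 ± 2.76% in ablated brains and 31.5 ± 3.36% in control brains (SD, n = 3 each), with no overlap. On the log2 scale the ratio differed by -1.11 between ablated and control brains. An exact permutation test over the arrays gave p = 0.1, two-sided, the smallest p this permutation test can give with 3 arrays against 3, and 0.15 after adjustment over the 3 pairs of pHCl-1 probe sets. The ratio of the last to the first probe set differed by -1.19 (exact permutation p = 0.1, adjusted 0.15), while that of the first to the middle one differed by 0.087 (exact permutation p = 0.8). The first probe set lay below the level for testing, with readings of 2.5 on ablated 5 and 4.4 on control 3. The ablated mean of the last one, 8.37, lay below that level too. The ratios of the last probe set to the middle and to the first share its readings, so they are not separate results. With an offset of 16 the ratio of the last to the middle one differed by -0.57, and with an offset of 1 by -1.25. It differed by -1.20 after quantile normalization and by -1.18 after cyclic loess. Such a ratio sets the probe sets against each other and does not show that one of them stayed the same.

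The spread between probe sets can be read against other genes with several. Of 484 genes with at least 2 tested probe sets, 15 (3.1%) had log2 differences spread as widely as the 1.11 of pHCl-1, and the median spread was 0.28. Among the 408 genes with exactly 2 tested probe sets, as pHCl-1 has, 10 (2.45%) were spread as widely. These shares are over genes of all brightness, and the last pHCl-1 probe set was tested through its control arrays alone. Among the 49 of the 484 genes that had such a probe set, with an ablated mean below and a control mean at or above 9.2, 7 (14.3%) were spread as widely, pHCl-1 included, and among the other 435 genes 8 (1.84%) were. RefSeq gives CG12486, CG13444, CG33989 and CG6112 as older names of pHCl-1, and which exons each probe set reads is not given in the sources used here.

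**Figure D2:**
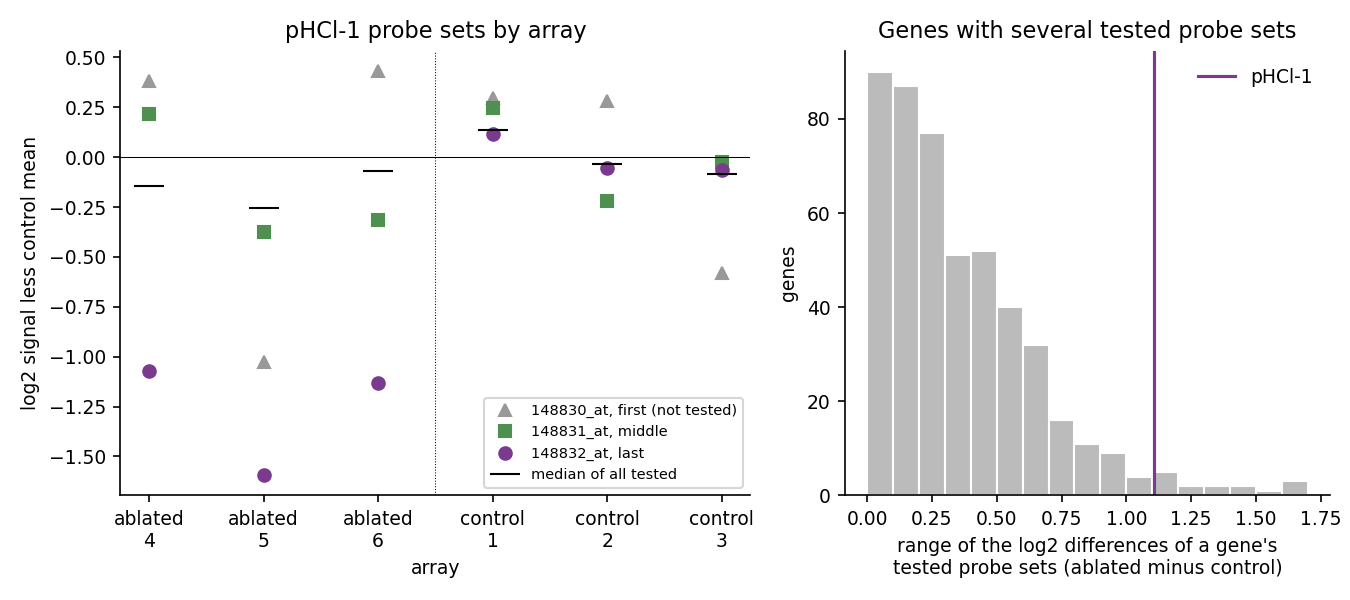
Left, log2 signal of the 3 pHCl-1 probe sets on each array relative to the mean of the control arrays, with the median of all tested probe sets as black dashes. Right, the number of genes by the range of the log2 differences (ablated minus control) of their tested probe sets, with pHCl-1 marked at 1.11. On the left the last probe set stands between -1.59 and -1.07 on the ablated arrays while the middle one stands between -0.37 and 0.21.

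Among the GABA receptor subunits, Lcch3 had the largest difference and Rdl and Grd stood near the median of all probe sets or above it. Lcch3 (152194_at, chromosome X) encodes a beta-like subunit. Its signal was 197.5, 189.7 and 287 on ablated 4, 5 and 6, against 313.5, 342.8 and 281.9 on control 1, 2 and 3. Ablated 4 and 5 lay far below the control arrays and ablated 6 lay just above control 3, so the groups overlapped. The means were 225 ± 54.1 in ablated brains and 313 ± 30.5 in control brains (SD, n = 3 each), a log2 difference of -0.49 (SE 0.18, 95% interval -0.91 to -0.079). This is -0.32 relative to all probe sets, with limma adjusted p = 0.554. On median-centred arrays the difference was -0.34, and its 95% interval of -0.72 to 0.039 included 0. In the deposited values with 1 array left out, the difference ranged from -0.68 (without ablated 6) to -0.38 (without ablated 5).

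Rdl (152254_at, chromosome 3L), the subunit named for resistance to the insecticide dieldrin, read 556.4, 493.5 and 449.9 on ablated 4, 5 and 6, against 749.4, 457.5 and 553.4 on control 1, 2 and 3. Control 1, the array of highest median signal, was alone at the top, and the other 5 arrays were mixed. Rdl differed by -0.21 on the log2 scale (SE 0.18, 95% interval -0.62 to 0.21, limma adjusted p = 0.680), which is -0.032 relative to all probe sets, and it was -0.015 without control 1 and -0.37 without control 2. The interval holds changes of either sign.

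Grd (143179_at, chromosome 3L), listed here with the GABA receptor subunits, was dim. It read 14.2, 12.7 and 8.90 on ablated 4, 5 and 6, against 11.6, 8.90 and 12.9 on control 1, 2 and 3. The groups covered nearly the same range and shared their lowest value. Grd differed by 0.074 on the log2 scale (SE 0.31, 95% interval -0.63 to 0.77, limma adjusted p = 0.938), the only positive one among the 7 tested probe sets in the deposited values, and -0.047 without control 2.

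GluClalpha (144038_at, chromosome 3R), the glutamate-gated chloride channel and the target of ivermectin, read 49.4, 29.0 and 43.8 on ablated 4, 5 and 6, against 68.1, 51.1 and 40.7 on control 1, 2 and 3. Ablated 5 was the lowest array and control 1 the highest, which are also the arrays of lowest and highest median signal. The means were 40.7 ± 10.5 in ablated brains and 53.3 ± 13.8 in control brains (SD, n = 3 each). The log2 difference was -0.37 (SE 0.25, 95% interval -0.94 to 0.20, limma adjusted p = 0.606), or -0.20 relative to all probe sets. With 1 array left out it ranged from -0.54 (without control 3) to -0.16 (without ablated 5). With control 1 and ablated 5 both left out it was 0.027.

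The histamine receptor gene ort (150213_at, chromosome 3R), whose channel receives photoreceptor input in the lamina, varied least from array to array of the 7 tested probe sets, by the ratio of the highest to the lowest array. It read 81.3, 69.3 and 85.6 on ablated 4, 5 and 6, against 88.8, 78.9 and 82.1 on control 1, 2 and 3. The highest array was 1.28 times the lowest, and the groups overlapped. The log2 difference was -0.082 (SE 0.17, 95% interval -0.45 to 0.29, limma adjusted p = 0.863), above the median of all probe sets by 0.092, and 0.072 on median-centred arrays. Photoreceptor markers varied more over the same arrays. Among the 6 tested, the highest array was from 2.91 (chp) to 25.4 (Arr2) times the lowest. Arr2, an arrestin of photoreceptors, read 832, 241 and 548 on ablated 4, 5 and 6, against 1085, 409 and 42.7 on control 1, 2 and 3, the highest 25.4 times the lowest. On control 3, where Arr2 was at its lowest, ort read 82.1. Whether photoreceptor material bears on the ort signal was not tested.

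pHCl-2 (150937_at, chromosome 3R), known for its place in gut and Malpighian tubule, was close to the floor of the arrays. It read 2.10, 2.20 and 6.50 on ablated 4, 5 and 6, against 6.50, 6.70 and 2.30 on control 1, 2 and 3. The values fell into a low and a higher level, with arrays of both groups at each. Its mean over all arrays of 4.38 was below the level for testing, and it was not tested.

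**Figure D3:**
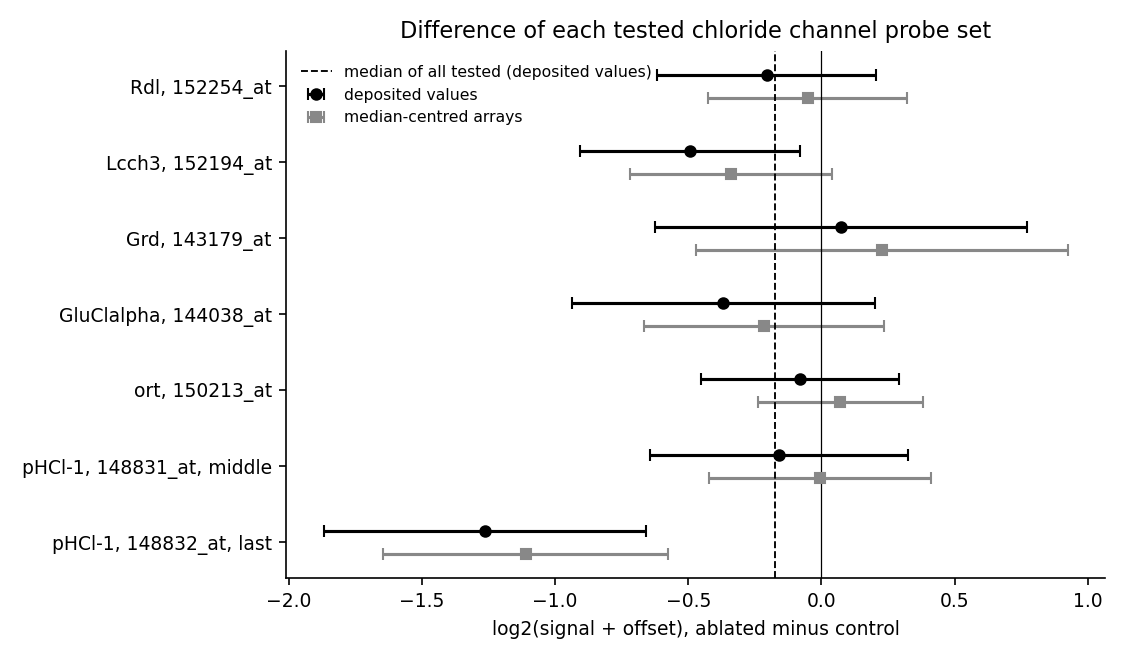
Log2 difference between ablated and control brains (horizontal axis) with 95% intervals from limma for the 7 tested chloride channel probe sets, from deposited values (black circles) and median-centred arrays (grey squares). The dashed line marks the median of all tested probe sets, -0.17. The interval of the last pHCl-1 probe set (-1.87 to -0.66) lies wholly below that line, and those of the other 6 include it.

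The channels' counts can be read against those of all tested probe sets. None of the 7 tested probe sets passed limma's adjusted test (0), where 0% of all 8381 tested probe sets passed. At an unadjusted p under 0.05, 2 of 7 were lower (the last probe set of pHCl-1 and Lcch3), against 7.89% of all tested probe sets. Of the 7, 6 had a difference below 0, where 74.1% of all tested probe sets did. No overlap with ablated brains lower was found for 1 of 7, against 14.8% of all, and no overlap with ablated brains higher for 0 of 7, against 1.26% of all. That 1 probe set, the last of pHCl-1, was also over 1.5-fold lower, where 3.2% of all were. It was tested through its control arrays alone, and of the 270 probe sets of that kind 23.7% were lower to that degree with no overlap. The shares over all tested probe sets are therefore not a like background for the counts that include it, here and on median-centred arrays. The median difference of the 7 was -0.21, beside -0.17 for all. With median-centred arrays, 5 of 7 were below 0 (52.9% of all), 1 of 7 was lower with no overlap (6.49% of all) and 1 of 7 was lower at an unadjusted p under 0.05 (2.64% of all).

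The channels were also set beside the overall level of each array. The median of the 7 tested probe sets, relative to the control mean, was -0.046, -0.37 and -0.24 on ablated 4, 5 and 6, against 0.12, -0.074 and -0.054 on control 1, 2 and 3. Over all tested probe sets it was -0.14, -0.26 and -0.071 on ablated 4, 5 and 6, against 0.14, -0.036 and -0.086 on control 1, 2 and 3. Ablated 5 was lowest and control 1 highest in both. The order of the other arrays differed, as the highest ablated array was ablated 4 for the channels and ablated 6 over all. Whether array brightness set the channels' values was not tested.

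Likeness of pattern was measured as the Euclidean distance over the 6 arrays between log2 values less each probe set's own mean. The 5 single-gene probe sets nearest to the last pHCl-1 probe set were those of Sol1 (distance 0.43), jing (0.44), ey (0.49), Ctf4 (0.50) and psh (0.51). Their log2 differences were -1.07, -1.15, -0.99, -1.61 and -0.89. The distance picks probe sets whose arrays differ alike, so lower ablated values among these 5 follow from the choice. The ablated means of jing (7.77), Ctf4 (4.67) and psh (7.1) lay below the level for testing. These were tested through their control arrays alone, as was the last pHCl-1 probe set. The ablated means of Sol1 (18.2) and ey (109) lay above that level. The gene jing encodes a zinc finger transcription factor, ey a Pax6 factor of mushroom body development, Ctf4 a replication fork protein and psh a serine protease of the Toll pathway. The middle pHCl-1 probe set was at a distance of 1.42 and ranked 3521 of 8380 in closeness, and the nearest chloride channel was Lcch3 at 1.07, ranked 614. Nearest to the middle probe set were loaf (distance 0.097), Cbp53E (0.12), which encodes a calcium-binding protein, Glut4EF (0.13), Lerp (0.14) and Dys (0.14), the dystrophin gene. Rdl was the channel closest to it, at 0.35, and ranked 194 of 8380. None of these genes passed limma's adjusted test, with the lowest adjusted p at 0.554.

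The nearest relatives of the channels by family were measured on the same arrays. CG8916 (145161_at), the gene next to Lcch3 on chromosome X, also encodes a cys-loop subunit. Its highest ablated array was ablated 6, as for Lcch3 and for the median of all tested probe sets. Its highest control array was control 3, which was the lowest control array for Lcch3. It read 46.8, 48.9 and 65.5 on ablated 4, 5 and 6, against 60.1, 75.5 and 83.3 on control 1, 2 and 3, with ablated 6 above control 1, so the groups overlapped. The log2 difference was -0.43 (SE 0.20, limma adjusted p = 0.554). Of the other cys-loop genes outside the nicotinic receptors, CG6927, SecCl and alka, the last a channel of alkaline taste, had mean signals of 6.40, 7.97 and 2.27 and were not tested. Nicotinic receptor subunits, which form the cation channels for acetylcholine, lay below 0 for 6 of 9 tested genes, with a median of -0.33 against -0.17 for all 6865 genes, of which 74% lay below 0. Of the 9, 2 were lower with no overlap between the groups, where 15.1% of all genes were. The smallest p values were those of nAChRalpha2 (152882_at), at 137 ± 17.4 in ablated and 197 ± 28.3 in control brains (SD, n = 3 each), and nAChRbeta1 (152309_at), at 122.5 ± 22.4 in ablated and 186 ± 49.5 in control brains. Both had limma adjusted p = 0.554, and the groups were apart for nAChRalpha2 and overlapped for nAChRbeta1.

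Genes that make, carry and clear the channels' transmitters gave no passing member either. Over the 5 lists of GABA, glutamate, histamine, chloride transport and pH genes, limma's adjusted test called 0 lower and 0 higher, as it did over all genes. At an unadjusted p under 0.05, 7.91% of all genes were lower and 0.612% higher. In the lists, VGAT (1 of 7 tested GABA genes) and kcc (1 of 7 tested chloride transport genes) were lower. None of the 5 glutamate, 2 histamine and 7 pH genes tested was lower, and no gene of the 5 lists was higher. On median-centred arrays no gene of the 5 lists was lower at that level (2.67% of all genes were) and CAH2 was higher (2.45% of all). GABA genes outside the channels lay below 0 for 6 of 7 tested genes, with a median of -0.17. The vesicular GABA transporter VGAT (147191_at) read 155.8, 134.2 and 208.5 on ablated 4, 5 and 6, against 247.8, 218.4 and 225.3 on control 1, 2 and 3, a log2 difference of -0.49 with no overlap. The highest ablated array for VGAT was ablated 6, as for Lcch3 and for the median of all tested probe sets. Gabat (149085_at), the GABA transaminase, differed by -0.19, and Gad1 (143478_at), which makes GABA, by 0.0029 (SE 0.17). Glutamate genes lay below 0 for 5 of 5 tested genes, with a median of -0.22, and those of smallest p were Eaat2 (152272_at), a transporter, at -0.38 and Gs2 (143181_at), a glutamine synthetase of glia, at -0.22. For histamine, 2 of 6 listed genes were tested, with e (152932_at), the enzyme ebony that conjugates histamine, at 0.058 and Balat (152807_at), a carrier of beta-alanine, at 0.010. Hdc, which makes histamine, was too dim to be tested.

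Chloride transporters set the gradient along which these channels act. Of 7 tested genes in that list, 6 lay below 0, with a median of -0.21. The potassium chloride cotransporter gene kcc, which lowers chloride in neurons, had 2 tested probe sets. Its probe set 152231_at read 166.6, 89.6 and 89.2 on ablated 4, 5 and 6, against 265, 165.2 and 142.6 on control 1, 2 and 3, a log2 difference of -0.73 (SE 0.29). Its other tested probe set, 147816_at, read 136.9, 98.1 and 138.8 on ablated 4, 5 and 6, against 133.2, 116.7 and 128.5 on control 1, 2 and 3. That is a difference of -0.032 (SE 0.18), and the groups overlapped on both probe sets. The spread between the kcc probe sets was 0.70, against 1.11 for pHCl-1 and a median of 0.28 over genes with several tested probe sets. Their intervals from limma, -1.39 to -0.069 for 152231_at and -0.44 to 0.37 for 147816_at, overlapped. Whether the kcc probe sets differed from each other was not tested. NKCC (152262_at), which carries chloride into cells, differed by -0.46 (SE 0.22). Genes of pH regulation had a median of -0.22 over 7 tested genes, 6 of them below 0, and the exception was CAH2 (148638_at), a carbonic anhydrase. CAH2 read 32.9, 21.7 and 25.0 on ablated 4, 5 and 6, against 24.2, 4.6 and 14.5 on control 1, 2 and 3, a difference of 0.94 (SE 0.43, limma adjusted p = 0.554). Nhe2 (151002_at), a sodium proton exchanger, differed by -0.27 and its dimmer probe set 146572_at by -0.15.

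**Figure D4:**
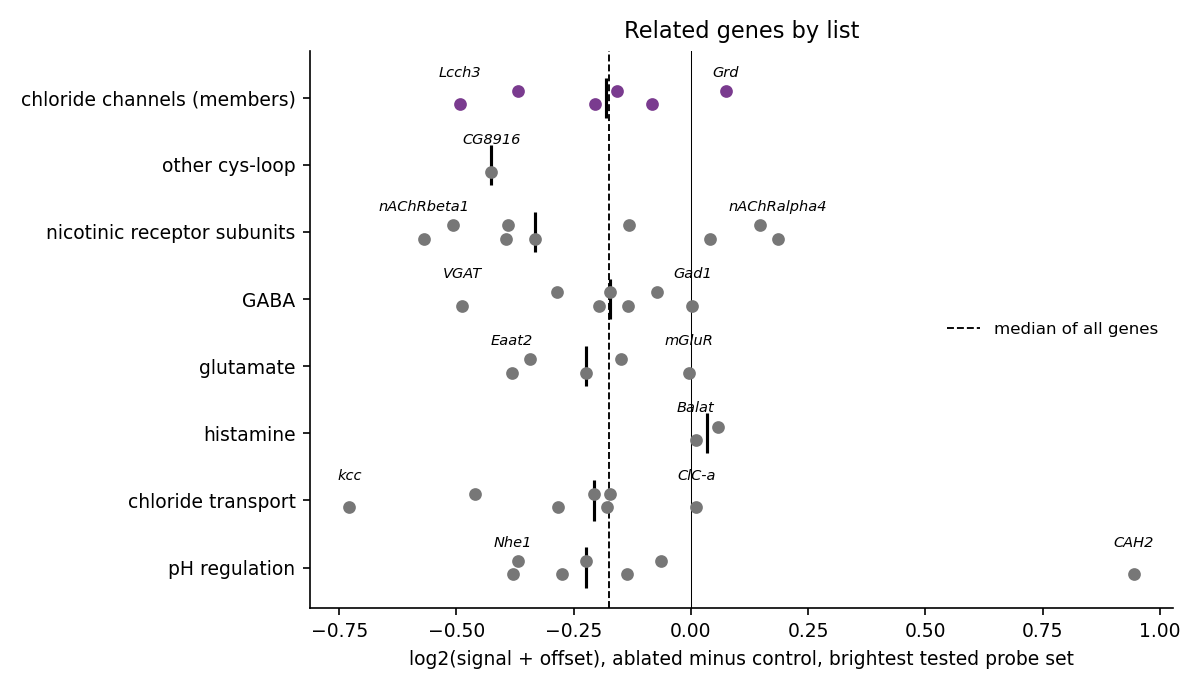
Log2 difference between ablated and control brains (horizontal axis) of each gene's brightest tested probe set, by list, with vertical bars at list medians and a dashed line at the median of all genes (-0.17). Purple points are the chloride channels. CAH2 at 0.94 is the rightmost gene and kcc at -0.73 the leftmost, and the median of the 6 tested chloride channel genes is -0.18.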

How the data were processed

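The authors deposited a linear intensity for each probe set on each array, made with MAS5 per the submitters' processing notes (settings not stated there). The platform annotation named the genes, with symbols updated through RefSeq (Release 6). After 44 Affymetrix control probe sets were left out, log2(intensity + 2.7) was taken, 2.7 being the 20th percentile of all values. Probe sets with a mean of at least 9.2 (the 40th percentile of means) were tested over all 8381 with limma 3.58.1 in R 4.3.3 (trended eBayes, two-sided, Benjamini-Hochberg at 0.05). Single ratios were compared by exact permutation over arrays. Lists used each gene's brightest tested probe set. The channels, and all lists, were chosen with earlier results of these data known. Named are all channel probe sets, for each related list at most 2 genes of smallest p where none passed, and the 5 probe sets nearest in pattern. Gad1, Hdc, Arr2, prt, dnc, Os-C, second probe sets and the split of genes with several probe sets by brightness were chosen after their values were seen. Alternatives covered scaling, offset, filter, variance trend and each array left out. The number of arrays limits the precision.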

Additional observations from a re-analysis of the deposited data

How the results depend on the processing

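No chloride channel probe set passed limma's adjusted test under any of 15 alternatives, with lowest adjusted p between 0.356 and 0.918. The difference of the last pHCl-1 probe set kept its sign in the 14 alternatives that tested it (-1.42 to -0.70), as did Lcch3 (-0.68 to -0.30) and Rdl (-0.37 to -0.0081) in 15 each. The ratio of the last to the middle pHCl-1 probe set kept its sign in 11 (-1.25 to -0.57). The count of probe sets lower with no overlap was 1. It was 0 under the 60th percentile filter, which left the last pHCl-1 probe set untested, and 1 to 3 with 1 array left out (3 without control 3, 2 without ablated 4 or ablated 6), where fewer arrays make overlap rarer: of all tested probe sets, 25.9%, 22.7% and 30.3% were lower with no overlap in these 3 settings, against 14.8% with every array. Small differences turned sign, and the cause was not tested beyond the setting itself. For ort they became 0.072 (median-centred), 0.11 (quantile), 0.13 (cyclic loess), 0.0043 (without ablated 5) and 0.050 (without control 1 and ablated 5). For the middle pHCl-1 probe set they became 0.034 (quantile), 0.047 (cyclic loess) and 0.072 (without control 1 and ablated 5), and GluClalpha became 0.027 in the last setting. Grd became -0.047 without control 2 and -0.039 without ablated 4. With 1 array left out, Grd ranged from -0.047 to 0.23 and ort from -0.14 to 0.0043. No paired analysis was possible because the groups share no replicate numbers.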
